A study of Homo sapiens with 12 samples.

Results

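Gene expression was measured in H929 cells exposed to tosedostat (CHR-2797) alone, an aminopeptidase inhibitor (APi), and in untreated H929 cells. H929 is a human myeloma cell line, that is, a line of malignant plasma cells, so all values describe 1 line in culture without marrow stroma. The comparison was chosen by the sample labels: 3 arrays of cells given 1 µM tosedostat for 24 hours against 3 arrays of untreated cells, 6 of the 12 arrays in the series. The other 6 arrays held cells given both tosedostat and the histone deacetylase inhibitor (HDACi) CHR-3996 (the combination, 3 arrays) or 250 nM CHR-3996 (3 arrays), each for 24 hours. All groups were grown in the same serum-containing medium. The untreated cells are labelled as untreated, and the sources used here do not say whether they received the solvent of the compounds. The samples are labelled biological replicates. Separate cultures are not stated, and the p-values therefore cover the spread between these samples alone, which may be technical.

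Tosedostat blocks enzymes that trim single amino acids from the ends of peptides, the last step by which peptides released by the proteasome are returned to free amino acids. A shortage of amino acids is known to activate the kinase GCN2, the transcription factor ATF4 and their targets, and to restrain mTORC1, the kinase complex that couples nutrients to growth. Plasma cells make and degrade much protein, and myeloma cells often rely on NFκB, a family of transcription factors that is held in check by IκB proteins and by deubiquitinating enzymes which are themselves NFκB targets.

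Each value is the log2 expression read by 1 probe set, that is, by several short probes to 1 transcript, after normalisation in dChip by the authors. A difference of 1 on this scale is therefore a 2-fold change. Changes are called where limma, fitted to all 12 arrays, gave an adjusted p (Benjamini-Hochberg) under 0.05. For each of 15587 genes the brightest probe set stands for the gene, and others are given for some genes, a choice made after their values were seen. The arrays were alike in their overall levels. The median value was 5.05 ± 0.01 on tosedostat arrays and 5.04 ± 0.04 on untreated arrays (SD, n = 3 each; exact two-sided permutation p = 0.9, where 0.1 is the smallest that 3 against 3 allows). Replicates correlated at r of 0.981 to 0.983 among tosedostat arrays and 0.98 to 0.983 among untreated arrays. The difference between the 3′ and 5′ β-actin controls, used here only to compare RNA quality between the groups, was 2.09 ± 0.11 on tosedostat arrays and 2.14 ± 0.17 on untreated arrays (p = 0.7 by the same exact test). Its level was not taken as a measure of degradation, since the RNA was amplified in 2 rounds. All 11 myeloma and plasma cell markers examined, SDC1, TNFRSF17, XBP1 and IRF4 among them, lay above the 40th percentile on all 6 arrays, and none passed the test between the groups, although CD38 did with the replicate number as a block (adjusted p = 0.0332). Of 9 T cell and NK markers, 9 stromal and endothelial markers and 7 monocyte markers measured, 3, 3 and 2 were above that level on all 6 arrays. The mature B cell markers measured, MS4A1 and PAX5, averaged 4.76 and 4.89 on tosedostat arrays and 4.88 and 5.12 on untreated arrays, near the middle of the arrays' range.

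Far more probe sets were higher than lower after tosedostat. Of 36395 probe sets tested, 1174 were called higher (3.23%) and 164 lower (0.451%), and 465 and 48 of these changed at least 2-fold. By gene, 663 were called higher (4.25% of all genes tested) and 85 lower (0.545%). Each count of calls in a gene list below is to be read against these shares. The median change over all genes was 0.04 on the log2 scale. The arrays of the groups did not overlap for 20.1% of genes in the higher direction and 9.16% in the lower direction, so absence of overlap alone is common here. With the replicate number as a block, 1936 probe sets were called higher and 373 lower, and 1328 of the 1338 calls were shared. With the 6 arrays of these groups alone the counts were 592 and 90, and with the block on those 6 arrays 0 and 0. Leaving out 1 of the 6 arrays gave 549 calls (without tosedostat replicate 2) to 966 calls (without untreated replicate 2) in the higher direction, and 60 (without untreated replicate 3) to 89 (without tosedostat replicate 3) in the lower direction. Quantile normalisation moved the share of higher calls among all calls to 75.9%, against 87.7% as deposited.

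**Figure D1:**
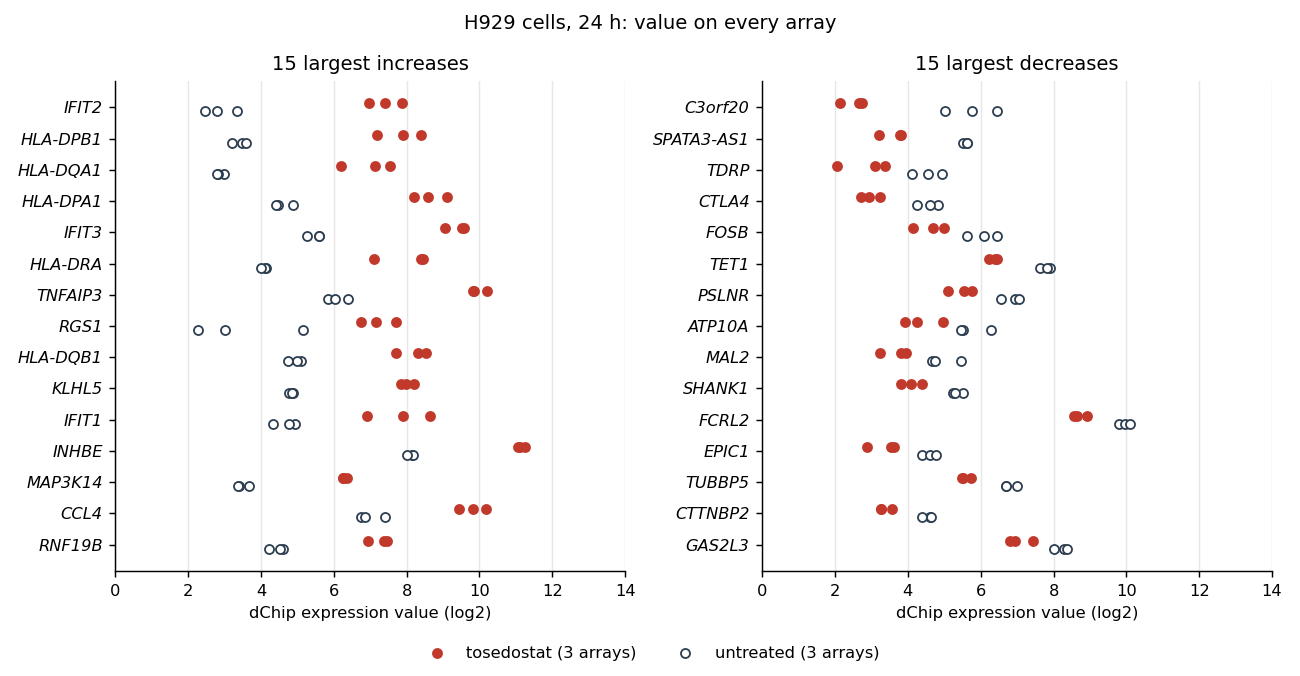
Values on each of the 3 tosedostat arrays (filled points, upper of each pair) and 3 untreated arrays (open points) for the 15 genes with the largest increases and the 15 with the largest decreases; the x axis is the dChip value on the log2 scale. Among annotated genes by their brightest probe set, IFIT2 leads the increases with a difference of 4.55, and most genes among the decreases read below 6 on tosedostat arrays.

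Of the 15 genes with the largest increases, 5 encode MHC class II chains and 3 are IFIT genes, which interferon induces. TNFAIP3, MAP3K14 and CCL4 belong to the NFκB pathway or the chemokines, and RGS1, KLHL5, INHBE and RNF19B to neither. MHC class II molecules are surface proteins that present peptides to helper T cells and are usually low in plasma cells. Of 15 measured genes of the list, 8 were called higher and none lower, with a median change of 1.01. HLA-DPB1, a β chain, read 8.40, 7.19 and 7.89 on tosedostat arrays, against 3.48, 3.20 and 3.59 on untreated arrays. That is a difference of 4.40 ± 0.26 (SE, limma adjusted p = 2.15e-05), and the highest untreated array lay far below the lowest tosedostat array. Its partner HLA-DPA1, an α chain, read 9.12, 8.21 and 8.58 after tosedostat and 4.48, 4.87 and 4.41 without it, a difference of 4.05 ± 0.22 (adjusted p = 1.4e-05). HLA-DQA1 read 7.54, 6.21 and 7.13 on tosedostat arrays and 2.99, 2.81 and 2.79 on untreated arrays (difference 4.09 ± 0.35, adjusted p = 0.000178). HLA-DRA, the α chain of the DR molecule, read 8.44, 7.10 and 8.39 after tosedostat and 4.15, 4.10 and 4.01 without it (3.89 ± 0.40, adjusted p = 0.000646). HLA-DQB1 rose by 3.25 ± 0.24 and HLA-DRB1 by 1.60 ± 0.19, with adjusted p of 8.68e-05 and 0.0015. HLA-DMA, part of the molecule that loads peptides onto class II, rose by 2.42 ± 0.20. In untreated cells HLA-DPB1, HLA-DQA1 and HLA-DRA averaged below the 40th percentile of the arrays, as did IFIT2, RGS1, MAP3K14 and CXCL10 below, so for these genes no fold is given and the difference is set against a dim level. For the 7 MHC class II genes of this paragraph, the tosedostat replicate 2 array gave the lowest of the 3 tosedostat values.

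The invariant chain CD74, the chaperone of class II molecules, depended on the probe set. Its brightest probe set read near 6 on all 6 arrays and was not called (difference 0.04 ± 0.13, adjusted p = 0.94). The other CD74 probe set read 8.89, 7.83 and 8.18 on tosedostat arrays, against 4.15, 3.55 and 2.80 on untreated arrays, and was called higher by 4.80 ± 0.68 (adjusted p = 0.00386). With any probe set counted, 9 of the 15 class II genes were called higher, where 5.28% of all genes have such a probe set higher and 0.84% lower. CIITA, the master transcriptional activator of class II genes, read 6.01, 5.68 and 6.14 on tosedostat arrays and 5.97, 6.0 and 6.29 on untreated arrays, and neither of its 2 probe sets was called (adjusted p = 0.702 and 0.953). RFX5, a DNA-binding subunit of the RFX complex that binds class II promoters, rose by 1.01 ± 0.16 to 11.57 ± 0.12 on tosedostat arrays, against 10.56 ± 0.15 on untreated arrays (SD, n = 3 each; adjusted p = 0.0072). Its partners RFXANK and RFXAP differed by 0.41 and 0.22 and were not called. Several class II probe sets carry the suffix that marks cross-hybridisation between family members, so the values of HLA-DQB1 and HLA-DRB1 cannot be assigned to 1 gene with certainty. For HLA-DPA1, the other 2 of 3 probe sets were not called, at 0.91 and -0.01.

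MHC class I and its loading machinery changed less. Of 20 measured genes, 4 were called higher and none lower, with a median change of 0.24. These were TAP1 (0.85 ± 0.11), which pumps peptides into the endoplasmic reticulum, HLA-F (0.82 ± 0.14), TAPBP (0.75 ± 0.17), which couples that pump to class I, and HLA-B (0.54 ± 0.13), with adjusted p of 0.00213 to 0.0406. HLA-B read 12.67, 12.50 and 12.62 on tosedostat arrays and 12.05, 12.01 and 12.10 on untreated arrays, so it was among the brighter probe sets in both groups. The probe sets of HLA-B and HLA-F carry the suffix for cross-hybridisation, so their values cannot be assigned to 1 gene with certainty. The calls of TAPBP and HLA-B were lost without any 1 of the 6 arrays (adjusted p up to 0.134).

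Interferon-induced genes encode sensors and effectors against viruses, and are switched on through a response element in their promoters. Of 28 measured, 13 were called higher and none lower, and their median change was 0.67. IFIT2, which binds viral RNA and slows translation, read 7.86, 7.41 and 6.96 on tosedostat arrays, against 2.46, 2.79 and 3.33 on untreated arrays, a difference of 4.55 ± 0.28 (adjusted p = 2.15e-05). IFIT3 read 9.57, 9.52 and 9.06 after tosedostat and 5.60, 5.58 and 5.26 without it (3.90 ± 0.34, adjusted p = 0.000194). IFIT1 read 8.65, 7.91 and 6.91 on tosedostat arrays and 4.93, 4.76 and 4.33 on untreated arrays (3.15 ± 0.43, adjusted p = 0.00302). The tosedostat arrays of IFIT1 spread over more than 1 log2 unit. MX1, a GTPase that blocks influenza viruses, rose by 1.95 ± 0.31, IFIT5 by 1.30 ± 0.26 and IFIH1, a sensor of double-stranded RNA, by 1.85 ± 0.15. IFIH1 read 10.35, 9.95 and 10.05 on tosedostat arrays and 8.25, 8.49 and 8.08 on untreated arrays. The interferon regulatory factors IRF7, IRF9 and IRF1 rose by 0.95 ± 0.14, 0.93 ± 0.21 and 0.75 ± 0.12.

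Other members of the same list did not pass the test. OAS2 read 8.20 to 8.43 on tosedostat arrays and 7.87 to 8.56 on untreated arrays, and XAF1, GBP1 and IFITM3 had differences of -0.36, -0.57 and -0.39. RIGI, another sensor of viral RNA, had 3 probe sets, of which 1 was called higher by 1.76 ± 0.22 (adjusted p = 0.00195) and the others differed by -0.23 and -0.29 and were not called. IFI44 likewise was called higher by 1.91 ± 0.26 with 1 probe set and not with its brightest (-0.37 ± 0.30). With any probe set counted, 16 of the 28 genes were called higher.

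**Figure D2:**
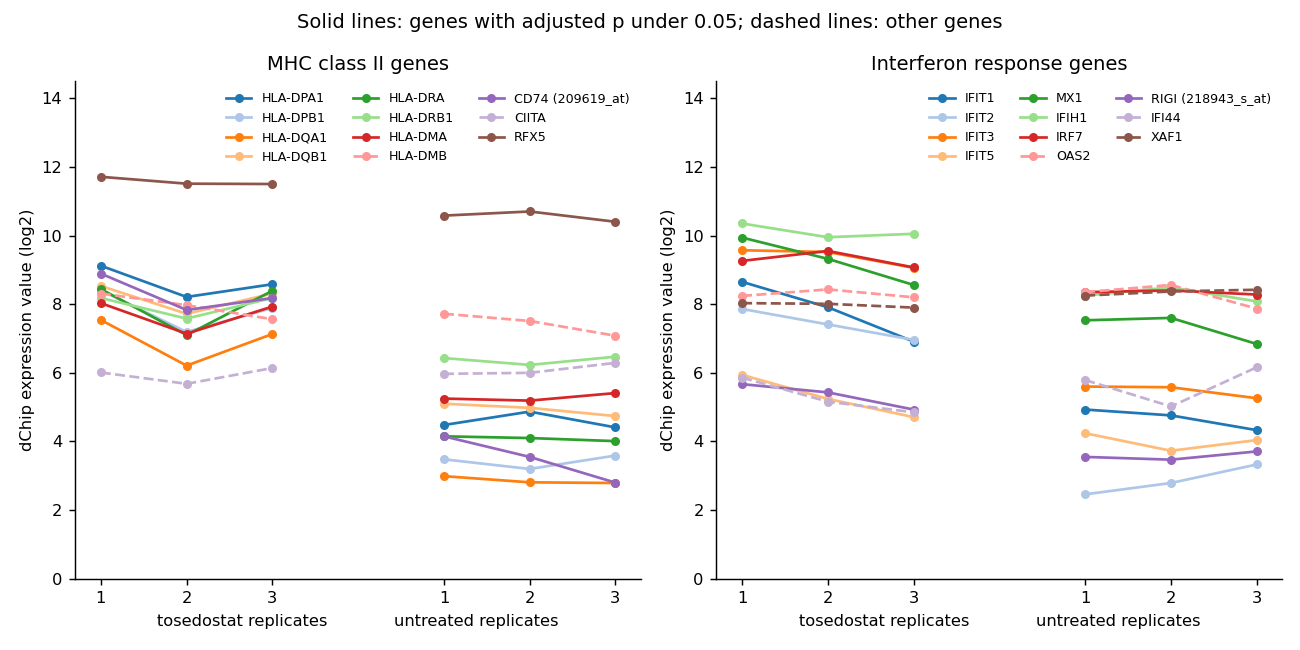
Values on the log2 scale on each of the 3 tosedostat and 3 untreated arrays for 11 MHC class II genes (left) and 11 interferon response genes (right); lines only join the arrays of 1 gene. Solid lines mark genes with adjusted p under 0.05: HLA-DPB1 stands near 8 after tosedostat and near 3.4 without it, and CIITA (dashed) stays near 6 in both groups.

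Genes of the NFκB pathway rose at several of its steps. Among the 5 subunits, RELB, the partner of p52 in the alternative pathway, read 7.28, 7.31 and 7.03 on tosedostat arrays, against 5.26, 5.52 and 5.08 on untreated arrays (difference 1.92 ± 0.23, adjusted p = 0.00134). NFKB1, the precursor of p50, rose by 0.64 ± 0.15 (adjusted p = 0.0482), a call that was lost without any 1 of the 6 arrays (adjusted p up to 0.165) and under quantile normalisation (0.0614) and equal array medians (0.0557). NFKB2, the precursor of p52, differed between its 3 probe sets. Its brightest gave 0.01 ± 0.12 and was not called. Another NFKB2 probe set read 8.88, 7.0 and 8.91 on tosedostat arrays and 5.07, 5.03 and 5.62 on untreated arrays, and was called higher by 3.02 ± 0.49 (adjusted p = 0.00817). RELA differed by 0.32 ± 0.14 and was not called (adjusted p = 0.303).

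Of 13 inhibitors and deubiquitinases of the pathway measured, 6 were called higher and none lower, with a median change of 0.50. TNFAIP3, which encodes the ubiquitin-editing enzyme A20, read 10.22, 9.82 and 9.86 on tosedostat arrays, against 5.84, 6.40 and 6.03 on untreated arrays. That is a difference of 3.88 ± 0.26 or 14.7-fold (adjusted p = 3.92e-05), and its second probe set gave 3.71. NFKBIA, encoding IκBα, which holds NFκB in the cytoplasm, read 11.32, 10.93 and 10.73 after tosedostat and 8.48, 8.35 and 8.05 without it (2.70 ± 0.20, adjusted p = 9.14e-05). The other NFKBIA probe set gave -0.78 and was not called. NFKBIZ rose by 1.86 ± 0.20 and NFKBIE, another IκB, by 0.80 ± 0.12. CYLD, a deubiquitinase that removes chains needed for NFκB signalling, rose by 1.04 ± 0.13 (adjusted p = 0.0019), and its 7 probe sets, 2 of them called, gave differences of 0.10 to 1.04. TRAF3, which marks the kinase NIK for degradation, rose by 0.77 ± 0.16 (adjusted p = 0.0245).

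Upstream of NFκB, 3 of 20 measured genes of the NIK, TRAF and cIAP group were called higher. MAP3K14, encoding NIK itself, read 6.37, 6.25 and 6.25 on tosedostat arrays and 3.39, 3.66 and 3.36 on untreated arrays (2.82 ± 0.15, adjusted p = 8.99e-06). TRAF4 rose by 1.26 ± 0.15. The IκB kinases CHUK and IKBKB differed by -0.16 and 0.32 and were not called. Downstream, 8 of 31 other NFκB targets were called higher and none lower, with a median of 0.30: the death ligand TNFSF10 (1.90 ± 0.41), PLEK (1.59 ± 0.36), the adhesion molecule ICAM1 (1.43 ± 0.18), CCND2 (0.98 ± 0.20), the caspase-8 inhibitor CFLAR (0.85 ± 0.15), IRF1 (0.75 ± 0.12), NINJ1 (0.72 ± 0.12) and MARCKS (0.71 ± 0.14). In untreated cells TNFSF10 and PLEK averaged below the 40th percentile. Their calls were lost in some of the fits that left out 1 array (adjusted p up to 0.107 and 0.13). IL6, SOD2 and CD44, also textbook targets, had differences of -0.02, -0.16 and 0.07. With the replicate number as a block, 8 of the 31 were called higher and 1 lower. Among 13 chemokines and receptors measured, CCL4, CXCL10 and CCR10 were called higher. CCL4, which attracts monocytes and T cells, read 9.81, 10.18 and 9.45 after tosedostat, against 7.40, 6.74 and 6.85 without it (2.82 ± 0.28, adjusted p = 0.000513). CXCL10, an interferon-induced chemokine, read 5.54, 5.82 and 4.79 on tosedostat arrays and 3.09, 2.31 and 3.27 on untreated arrays (2.50 ± 0.29, adjusted p = 0.00134). CCR10, a receptor of plasma cells, rose by 0.89 ± 0.15.

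The 3 NFκB genes and 3 amino acid response genes with the largest changes were searched for sequence motifs in their promoters, in a window of 250 bases before and 50 bases after the start of transcription (RefSeq, GRCh38.p14). The κB consensus, searched on both strands, occurs in 11.3% of 35116 such windows. Of the NFκB genes searched, TNFAIP3, MAP3K14 and NFKBIA, the windows of TNFAIP3 and NFKBIA hold it and are shown for that reason, and the window of MAP3K14 holds no match. Capitals mark the matches, which are descriptions of the letters and not shown to be bound in these cells. The TNFAIP3 window lies at chr6:137867009-137867308 on the plus strand, with matches starting 67 and 55 bases before the start of transcription, and the NFKBIA window at chr14:35404700-35404999 on the minus strand, with 1 match starting 81 bases before it.
TNFAIP3: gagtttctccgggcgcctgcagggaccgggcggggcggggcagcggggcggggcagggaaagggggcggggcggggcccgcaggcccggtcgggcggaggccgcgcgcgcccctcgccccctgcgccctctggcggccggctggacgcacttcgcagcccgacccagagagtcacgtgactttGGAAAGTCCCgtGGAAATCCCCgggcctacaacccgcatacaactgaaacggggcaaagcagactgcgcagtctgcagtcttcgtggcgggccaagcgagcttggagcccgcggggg
NFKBIA: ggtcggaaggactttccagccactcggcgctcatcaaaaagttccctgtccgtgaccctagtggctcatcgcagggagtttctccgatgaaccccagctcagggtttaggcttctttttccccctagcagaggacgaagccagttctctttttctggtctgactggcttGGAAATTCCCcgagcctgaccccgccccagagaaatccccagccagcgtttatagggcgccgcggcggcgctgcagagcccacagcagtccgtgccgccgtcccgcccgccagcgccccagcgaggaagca

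For the interferon-induced genes the response element was searched on both strands as TTTC and TTTC separated by 2 bases of any kind, a search chosen after the values were seen, and 3.57% of the windows hold it. IFIT1 (chr10:89392373-89392672, plus strand) has 2 matches, 116 and 103 bases before the start. CXCL10 (chr4:76023448-76023747, minus strand) has 1 such match 221 bases before the start and κB matches at 177 and 122 bases before it, all in capitals, so both kinds of element stand in 1 window.
IFIT1: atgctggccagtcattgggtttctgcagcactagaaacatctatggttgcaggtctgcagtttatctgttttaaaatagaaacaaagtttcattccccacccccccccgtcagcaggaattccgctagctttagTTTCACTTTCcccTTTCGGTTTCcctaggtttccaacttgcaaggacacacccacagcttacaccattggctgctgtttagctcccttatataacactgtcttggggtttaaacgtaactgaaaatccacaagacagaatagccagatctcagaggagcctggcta
CXCL10: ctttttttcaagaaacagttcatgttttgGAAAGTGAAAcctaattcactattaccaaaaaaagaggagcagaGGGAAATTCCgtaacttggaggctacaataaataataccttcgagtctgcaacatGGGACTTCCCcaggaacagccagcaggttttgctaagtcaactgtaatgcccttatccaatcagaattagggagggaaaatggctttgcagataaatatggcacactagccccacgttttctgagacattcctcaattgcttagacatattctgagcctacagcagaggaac

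Targets of the amino acid response formed the largest group of calls outside immunity. Of 25 measured genes, 13 were called higher and 1 lower, with a median change of 0.65. CHAC1, which degrades glutathione, read 11.15, 10.69 and 10.42 on tosedostat arrays, against 8.35, 8.22 and 7.48 on untreated arrays (2.74 ± 0.26, adjusted p = 0.000412). CTH, which makes cysteine from cystathionine, read 10.23, 10.31 and 10.51 after tosedostat and 7.74, 8.40 and 8.13 without it (2.26 ± 0.22, adjusted p = 0.000504). DDIT3, the stress transcription factor CHOP, read 9.04, 9.14 and 8.81 on tosedostat arrays and 7.18, 6.91 and 6.83 on untreated arrays (2.02 ± 0.18, adjusted p = 0.000194). SESN2, a leucine sensor that restrains mTORC1, read 10.74, 10.44 and 10.37 after tosedostat and 8.90, 8.56 and 8.41 without it (1.89 ± 0.17). In none of these 4 genes, chosen by the size of their change, did an untreated array reach the tosedostat arrays. That held for 20.1% of all genes in the higher direction. ATF3 rose by 1.52 ± 0.16, the autophagy receptor SQSTM1 by 1.48 ± 0.12, TRIB3, which feeds back on ATF4, by 1.33 ± 0.25, STC2 by 1.28 ± 0.25 and DDIT4, another brake on mTORC1, by 1.26 ± 0.15. ATF4 itself differed by 0.59 and was not called (adjusted p = 0.105). The secreted factor INHBE, not on the list and among the 15 largest increases, read 11.25, 11.07 and 11.10 on tosedostat arrays and 8.16, 8.18 and 8.01 on untreated arrays (3.02 ± 0.23, adjusted p = 9.14e-05).

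The list had 1 member called lower. TXNIP, which inhibits glucose uptake and thioredoxin, read 9.13, 8.96 and 8.98 on tosedostat arrays, against 10.36, 9.84 and 10.09 on untreated arrays, and fell by 1.07 ± 0.17 (adjusted p = 0.00757). FGF21, VLDLR and NUPR1 had differences of -0.49, -0.49 and -0.34 and were not called. EGR1 read 7.47, 7.39 and 6.5 after tosedostat and 7.73, 8.34 and 8.42 without it with its brightest probe set (-1.05 ± 0.26, adjusted p = 0.0562), and was called lower with another probe set (-1.93 ± 0.38, adjusted p = 0.0206).

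The C/EBP-ATF response element, the site through which ATF4 and its partners act, was searched as TGATGNAAN on both strands and occurs in 3.61% of all windows. Of the 3 amino acid response genes with the largest changes, CHAC1 has a match, 210 bases before the start (chr15:40953221-40953520, plus strand), and CTH and DDIT3 have none of these letters in the window. DDIT3 has an AP-1 site (TGANTCA, in 7.71% of windows) 241 bases before the start. ASNS, added after the values were seen because it is the classical gene of this element, has a match 68 bases before the start in 1 of its 2 RefSeq windows (chr7:97872359-97872658, minus strand) and none in the other.
CHAC1: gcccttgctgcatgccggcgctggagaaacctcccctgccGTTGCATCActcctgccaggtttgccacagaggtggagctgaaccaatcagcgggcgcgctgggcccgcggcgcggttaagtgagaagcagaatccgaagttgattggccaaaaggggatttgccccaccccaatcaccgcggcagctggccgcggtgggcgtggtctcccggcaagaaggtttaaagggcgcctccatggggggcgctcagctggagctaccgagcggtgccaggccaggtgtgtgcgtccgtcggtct
ASNS: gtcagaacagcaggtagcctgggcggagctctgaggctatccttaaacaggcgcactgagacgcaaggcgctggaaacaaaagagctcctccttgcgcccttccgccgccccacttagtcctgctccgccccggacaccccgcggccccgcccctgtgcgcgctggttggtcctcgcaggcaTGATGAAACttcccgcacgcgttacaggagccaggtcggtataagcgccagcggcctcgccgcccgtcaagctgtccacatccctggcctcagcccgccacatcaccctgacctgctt

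**Figure D3:**
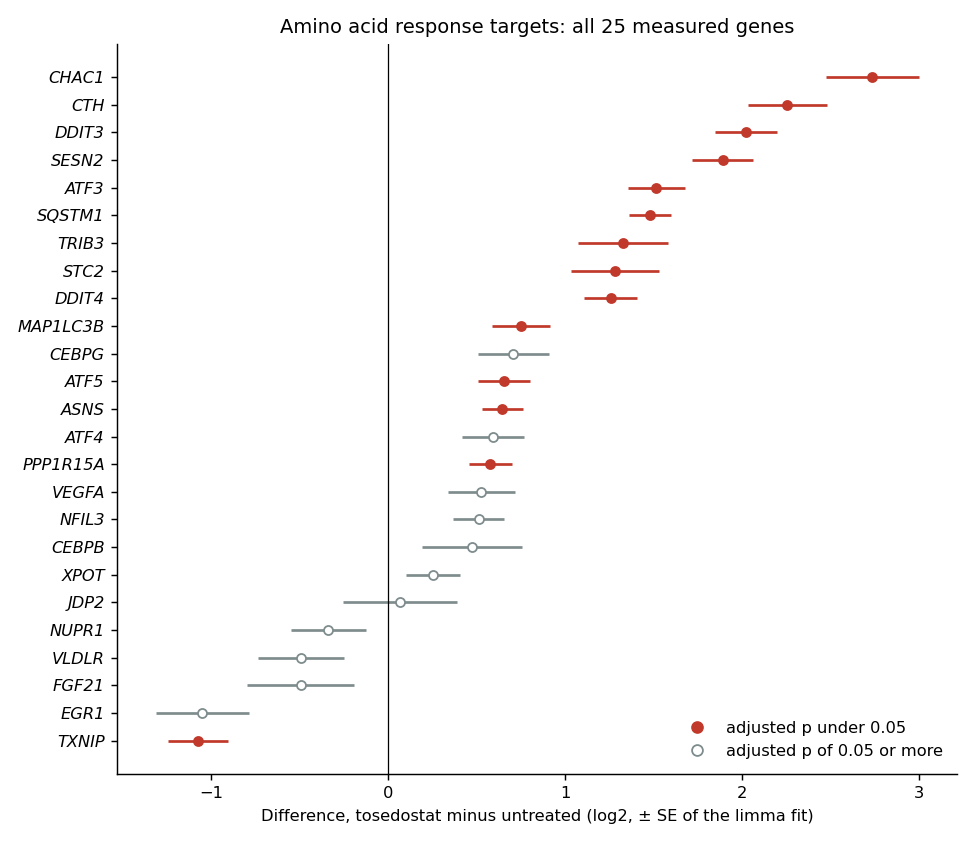
Difference on the log2 scale, tosedostat minus untreated, for all 25 measured amino acid response genes, with bars of ± 1 SE from limma; filled points have an adjusted p under 0.05. CHAC1 is highest at 2.74 and TXNIP lowest at -1.07, and 5 genes lie below 0.

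Genes for the supply of amino acids changed more selectively. Among 17 enzymes of asparagine, serine and one-carbon metabolism, 4 were called higher: CTH, given above, ASS1, which makes argininosuccinate (1.79 ± 0.24), CBS, which makes cystathionine (1.54 ± 0.16), and ASNS, asparagine synthetase (0.65 ± 0.11). ASNS read 12.71, 12.81 and 12.89 on tosedostat arrays and 12.17, 12.14 and 12.17 on untreated arrays, so it was already bright in untreated cells. With the replicate number as a block, 7 of the 17 were called higher. Of 17 amino acid transporters, 2 were called: SLC7A11, the cystine importer (10.59, 10.14 and 10.37 on tosedostat arrays, against 8.50, 8.87 and 8.86 on untreated arrays; 1.62 ± 0.19, adjusted p = 0.00139), and SLC38A2, a sodium-coupled importer (0.82 ± 0.13). None of the 17 cytosolic tRNA synthetases, which load amino acids onto tRNA, was called by its brightest probe set. Their median was 0.28, 16 of the 17 differences were above 0, and with other probe sets WARS1, SARS1 and CARS1 were called higher by 0.95, 1.16 and 0.88. Quantile normalisation gave 4 calls in this list. In the mTORC1 nutrient-sensing list, 5 of 21 genes were called higher, SESN2 and DDIT4 as above, ULK1, which starts autophagy (1.03 ± 0.19), EIF4EBP1, a brake on translation (0.75 ± 0.13), and RRAGC (0.48 ± 0.11).

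The enzymes that tosedostat is directed at, and the proteasome before them, changed little in transcript level. Of 28 aminopeptidases and related peptidases measured, none was called in either direction, the median was 0.10 and the differences ran from -0.31 (METAP1) to 0.40 (NPEPL1). LAP3 and NPEPPS, cytosolic aminopeptidases, differed by 0.06 and 0.11. The proteasome list had 1 call in 34 genes, which was not a subunit but NFE2L1, the transcription factor that controls proteasome genes. NFE2L1 read 11.65, 11.24 and 11.53 on tosedostat arrays and 10.04, 9.91 and 9.93 on untreated arrays (1.51 ± 0.17, adjusted p = 0.00123). The subunit PSMB4 was called higher by a probe set other than its brightest, and PSMD11 was called higher with the replicate number as a block (adjusted p = 0.043). By their brightest probe sets the subunits and assembly factors lay between -0.26 (PSMG3) and 0.48 (PSMD11). Of the 34 genes, 31 were above 0, and quantile normalisation called 4.

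Autophagy genes, whose products carry cell contents to the lysosome, were called higher in 8 of 36 cases and lower in none, with a median of 0.24. For this list and those that follow, the shares over all genes were 4.25% higher and 0.545% lower. Besides SQSTM1 and ULK1 these were the receptor OPTN (1.49 ± 0.19), TFEB, the master regulator of lysosomal genes (1.40 ± 0.17), GABARAPL1 (0.85 ± 0.19), MAP1LC3B (0.75 ± 0.17), WIPI1 (0.73 ± 0.13) and ATG2A (0.53 ± 0.13). TFEB read 8.08, 8.18 and 7.84 on tosedostat arrays, against 6.49, 6.92 and 6.5 on untreated arrays. The lysosome list had 3 calls in 28, all higher: CTSD (0.60 ± 0.11), PSAP (0.58 ± 0.12) and LAMP2 (0.46 ± 0.11). Of 24 genes of NRF2 and glutathione metabolism, 4 were called higher, SLC7A11 as above, ME1 (1.28 ± 0.13), NQO1 (0.72 ± 0.17) and GCLM (0.55 ± 0.13). The calls of MAP1LC3B, ATG2A, LAMP2 and NQO1 were lost without any 1 of the 6 arrays, with adjusted p up to 0.124, 0.183, 0.156 and 0.155.

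**Figure D4:**
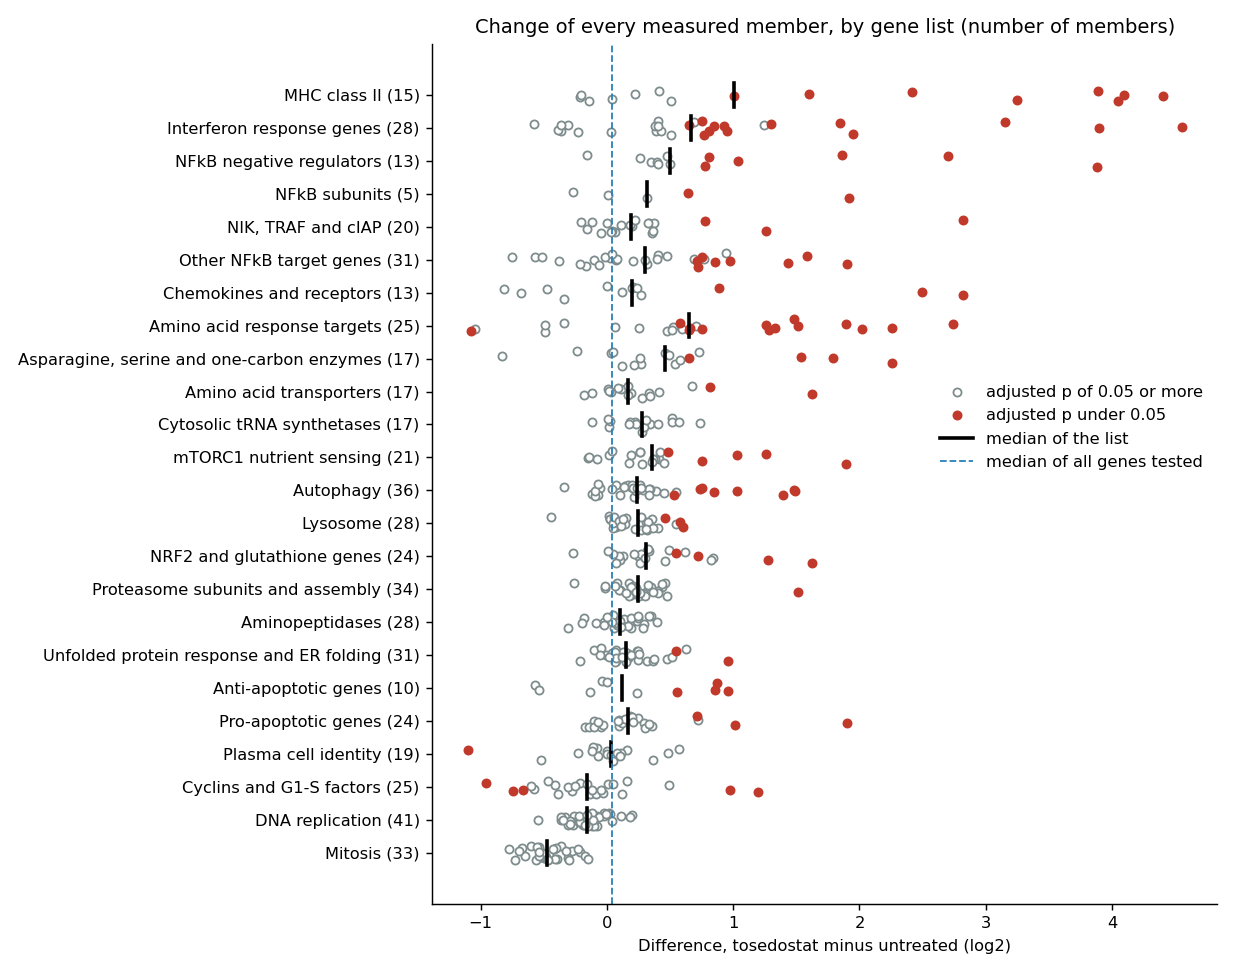
Difference on the log2 scale, tosedostat minus untreated, for each measured member of 24 gene lists (number of members in brackets); filled points have adjusted p under 0.05, black bars are list medians and the dashed line is the median of all genes. MHC class II has the highest list median, 1.01, and mitosis the lowest, -0.48, with all 33 of its points below 0.

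Genes of cell death were called on both sides of the balance, where 4.25% of all genes were called higher and 0.545% lower. Of 24 pro-apoptotic genes, 3 were called higher: TNFSF10, PMAIP1, encoding the BH3-only protein NOXA (1.01 ± 0.12), and the death receptor TNFRSF10B (0.72 ± 0.16). PMAIP1 read 9.73, 9.63 and 9.73 on tosedostat arrays and 8.78, 8.48 and 8.80 on untreated arrays. BCL2L11, encoding BIM, was not called by its brightest probe set (0.14) and was called higher by 2 of its 7 probe sets (0.93 ± 0.17 and 0.71 ± 0.11). The death receptor FAS was called higher with 2 of its 5 probe sets (1.68 ± 0.27 and 1.32 ± 0.22), and not with its brightest (0.30). Of 10 anti-apoptotic genes, 4 were called higher: BCL2 (0.96 ± 0.20), BCL2L1 (0.87 ± 0.18), CFLAR and MCL1 (0.56 ± 0.10), a survival factor of myeloma cells that read 13.31, 13.26 and 13.17 after tosedostat and 12.72, 12.77 and 12.59 without it. Of 21 p53 targets, TP53INP1 (1.63 ± 0.22) and TNFRSF10B were called higher, and CDKN1A, encoding p21, had a difference of 0.42 and was not called (adjusted p = 0.142). With the replicate number as a block, CDKN1A was called higher (adjusted p = 0.0473) and the anti-apoptotic gene BCL2A1 lower (-0.57, adjusted p = 0.0327).

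The unfolded protein response list had 2 calls in 31 genes and the heat shock list 1 in 19, where 4.25% of all genes were called higher. Of 31 genes of the endoplasmic reticulum, the oxidase ERO1B (0.96 ± 0.12) and HERPUD1 (0.55 ± 0.10) were called higher, and 5 were under quantile normalisation. HSPA1L was the call among 19 heat shock chaperones (1.04 ± 0.23), and it read below 5 on all 6 arrays. By its brightest probe set, no gene was called in the lists of metallothioneins (13 measured), ribosome biogenesis (28), oxidative phosphorylation (26) or tubulin isotypes (15). With the block, SLC39A10 of the metallothionein and zinc list was called lower (-0.50, adjusted p = 0.0389). Probe sets other than the brightest were called higher for SDHC of oxidative phosphorylation, RHEB of the mTORC1 list, HLA-C of class I, DNAJB9 of the unfolded protein response, CYCS of the pro-apoptotic list, CDKN1C of the CDK inhibitors, PKM of glycolysis, JAK1 of the JAK-STAT3 list and OAS1 of the interferon list. Single calls were ABCG1, which exports cholesterol, among 27 genes of cholesterol synthesis and uptake (1.07 ± 0.16), and TXNIP among 24 of glycolysis and glucose transport. TNFSF9, the ligand of the T cell receptor 4-1BB, was the call among 18 ligands of NK cells and checkpoints (1.14 ± 0.22).

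In the lists below of genes downstream of MAP kinase, 2 of 25 were called higher and 1 lower, and 1 of 14 higher. All genes tested gave 4.25% higher and 0.545% lower. FOSB, an AP-1 subunit, read 4.70, 4.98 and 4.14 on tosedostat arrays, against 6.10, 6.44 and 5.63 on untreated arrays, and fell by 1.45 ± 0.25 (adjusted p = 0.00966). ATF3 and IER5 (0.56 ± 0.12) were the higher calls among the 25 genes of the AP-1 and early response list. With the replicate number as a block, 4 of the 25 were called higher and 3 lower. Of 14 MAP kinase phosphatases and Sprouty genes, DUSP10, which acts on JNK and p38, was called higher (1.20 ± 0.17). DUSP6, SPRY1 and SPRED1, feedback inhibitors of the ERK pathway, were called lower by 1 probe set each (-1.28 ± 0.31, -1.28 ± 0.31 and -0.81 ± 0.19), and by their brightest probe sets they differed by -0.65, -0.14 and -0.44 and were not called. With the replicate number as a block, the brightest probe set of DUSP6 was called lower (adjusted p = 0.0306). In the IL6 and JAK-STAT3 list, 3 of 18 genes were called higher, the kinase PIM1 (0.61 ± 0.14), the receptor chain IL6ST (0.56 ± 0.13) and PIAS3 (0.49 ± 0.12), and 5 were with the replicate number as a block. Of 23 adhesion receptors, ICAM1 and SELPLG, the ligand of selectins (1.14 ± 0.24), were called higher.

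Mitosis genes and most DNA replication genes lay below 0 without being called, and the cyclins and G1-S factors were mixed. All 33 measured mitosis genes had differences below 0, from -0.78 (KIF23) to -0.15 (BUB3), with a median of -0.48 where the median of all genes was 0.04. None was called, and 2, KIF23 and ECT2, were called lower with the replicate number as a block (adjusted p = 0.0384 and 0.0296). Set against the mean of the untreated arrays, the median over the 33 genes was -0.58, -0.56 and -0.26 on the 3 tosedostat arrays and -0.03, 0.00 and 0.04 on the 3 untreated arrays, so tosedostat replicate 3 stood nearest to the untreated arrays. PLK1, a mitotic kinase, differed by -0.68 and CCNB1, cyclin B1, by -0.48, with adjusted p of 0.119 and 0.498. Of 41 DNA replication genes, none was called, and their median was -0.15. Only 6 of them were above 0, where 57.3% of all genes were. With the block, GINS1 was called lower (-0.55, adjusted p = 0.046). Among 25 cyclins and G1-S factors, 3 were called lower: CCNF (-0.96 ± 0.15), E2F8 (-0.74 ± 0.14) and RBL1 (-0.66 ± 0.13). CCNF, cyclin F, read 8.96, 8.84 and 9.06 on tosedostat arrays and 9.90, 9.95 and 9.89 on untreated arrays (adjusted p = 0.0072). CCND2 and CCNG2 (1.19 ± 0.29) were called higher. With the block, 2 of the 25 were called higher and 4 lower. In bulk samples, fewer cells in a phase and less RNA per cell cannot be told apart.

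The remaining genes with the largest increases were RGS1, KLHL5 and RNF19B. RGS1, which dampens G protein signalling in B cells, read 6.75, 7.71 and 7.15 on tosedostat arrays, against 2.28, 5.14 and 3.00 on untreated arrays, the widest spread among untreated arrays of the 15 (3.73 ± 0.63, adjusted p = 0.00922). Of its other probe sets, 1 was called higher (2.53) and 1 gave -0.50 and was not called. KLHL5, an adaptor of a ubiquitin ligase family, read 7.85, 7.99 and 8.20 after tosedostat and 4.87, 4.77 and 4.86 without it (3.18 ± 0.11, adjusted p = 4.57e-07), and 3 of its 4 probe sets were called. RNF19B, a ubiquitin ligase, rose by 2.80 ± 0.22.

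The largest decreases were mostly of dim probe sets. C3orf20 read 2.66, 2.75 and 2.14 on tosedostat arrays, against 5.76, 5.02 and 6.46 on untreated arrays (-3.23 ± 0.74, adjusted p = 0.0386), and its call was lost without any 1 of the 6 arrays (adjusted p up to 0.137). SPATA3-AS1 (-1.98 ± 0.37), TDRP (-1.69 ± 0.40), the T cell inhibitory receptor CTLA4 (-1.61 ± 0.23), PSLNR (-1.38 ± 0.28), ATP10A (-1.37 ± 0.31), MAL2 (-1.28 ± 0.24), SHANK1 (-1.25 ± 0.29), EPIC1 (-1.23 ± 0.27) and CTTNBP2 (-1.19 ± 0.16) also fell, and all of these but PSLNR averaged below the 40th percentile of the arrays after tosedostat. Brighter genes fell as well. FCRL2, an Fc receptor-like protein of the B lineage, read 8.65, 8.92 and 8.57 after tosedostat and 9.80, 9.95 and 10.10 without it (-1.24 ± 0.21, adjusted p = 0.00922), with 2 of its 5 probe sets called. TET1, which oxidises methylated DNA, read 6.23, 6.40 and 6.44 on tosedostat arrays and 7.64, 7.91 and 7.81 on untreated arrays (-1.43 ± 0.16, adjusted p = 0.00111). That TET1 probe set carries the suffix for cross-hybridisation, and the other of its 2 probe sets, at -0.49, was not called. TUBBP5, a tubulin pseudogene, and GAS2L3, a protein of dividing cells, fell by 1.22 ± 0.19 and 1.17 ± 0.17.

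Plasma cell genes had 1 call. Of 19 measured, none was called higher and GPRC5D, a surface receptor of plasma cells, was called lower, at 8.25, 8.07 and 8.05 on tosedostat arrays and 9.52, 9.01 and 9.14 on untreated arrays (-1.10 ± 0.17, adjusted p = 0.00668). SDC1, TNFRSF17 (BCMA), XBP1 and PRDM1 had differences between 0.00 and 0.07, and those of BCL6, CD38, POU2AF1 and BACH2 were 0.57, 0.48, 0.37 and -0.52. CD38 was called higher with the replicate number as a block (adjusted p = 0.0332), and not without it (0.292). Among monocyte markers, S100A8 was called higher (0.78 ± 0.16) and C1QA lower (-0.95 ± 0.22), both at or below 6 on all 6 arrays.

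The series also allows tosedostat to be set against its absence in cells given CHR-3996, since the combination and CHR-3996 arrays share none with the comparison above. There, 19 probe sets were called higher and 4 lower (0.0522% and 0.011% of 36395), or 9 genes higher (0.0577%) and 0 lower by their brightest probe sets, where 3857 probe sets had an unadjusted p under 0.05. Of the 1174 probe sets called higher by tosedostat alone, 81.3% were also above 0 in the presence of CHR-3996, where 60.5% of all probe sets were. Their median difference was 0.88 in tosedostat against untreated cells and 0.21 in combination against CHR-3996 cells. Of the 164 called lower, 57.3% were also below 0 there, where 39.5% of all probe sets were, with medians of -0.77 and -0.08. These probe sets were chosen by the first difference, so their medians in the first and second pair are not on equal terms. The differences of the pairs correlated at r = 0.188 over all 36395 probe sets and 0.445 over the 1338 called, and probe sets are not independent of each other. A probe set that the annotation does not list, and which is therefore not named, differed by 5.66 in the first pair (adjusted p = 1.45e-06) and 2.24 in the second (adjusted p = 0.0164), with an interaction of -3.42, and its first difference exceeded that of IFIT2. CXCL10 was called in both: it read 8.33 ± 0.24 in the combination and 5.70 ± 0.20 with CHR-3996 (SD, n = 3 each; difference 2.63 ± 0.29, adjusted p = 0.0164). NFKBIA (1.41 ± 0.20, adjusted p = 0.0479) and MAP3K14 (1.13 ± 0.15, adjusted p = 0.0256) were also called in both. TNFAIP3 reached 9.97 ± 0.22 both after tosedostat and in the combination, against 6.09 ± 0.29 in untreated and 8.22 ± 0.57 in CHR-3996 cells, and its difference in the second pair, 1.74 ± 0.26, was not called (adjusted p = 0.0596).

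The test of the difference itself, the interaction, called 67 probe sets (0.184%) as lower in the presence of CHR-3996 and 8 (0.022%) as higher, or 38 genes (0.244%) and 5 genes (0.0321%). MHC class II and interferon genes led these. HLA-DPB1 differed by 4.40 without CHR-3996 and 0.49 ± 0.26 with it, and IFIT3 by 3.90 and 0.26 ± 0.34. Their levels were already high with CHR-3996 alone: HLA-DPB1 read 7.83 ± 0.61 with tosedostat and 9.43 ± 0.21 with CHR-3996 (SD, n = 3 each), and IFIT3 9.38 ± 0.28 and 11 ± 0.64. CBS and RNF19B did not follow this pattern. RNF19B read 7.25 ± 0.28 with tosedostat and 4.59 ± 0.36 with CHR-3996, near its untreated level of 4.45 ± 0.20, and 5.16 ± 0.28 in the combination. CBS read 9.54 ± 0.03 with tosedostat, 8.32 ± 0.06 in the combination, 8.30 ± 0.38 with CHR-3996 and 8.0 ± 0.09 in untreated cells.

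**Figure D5:**
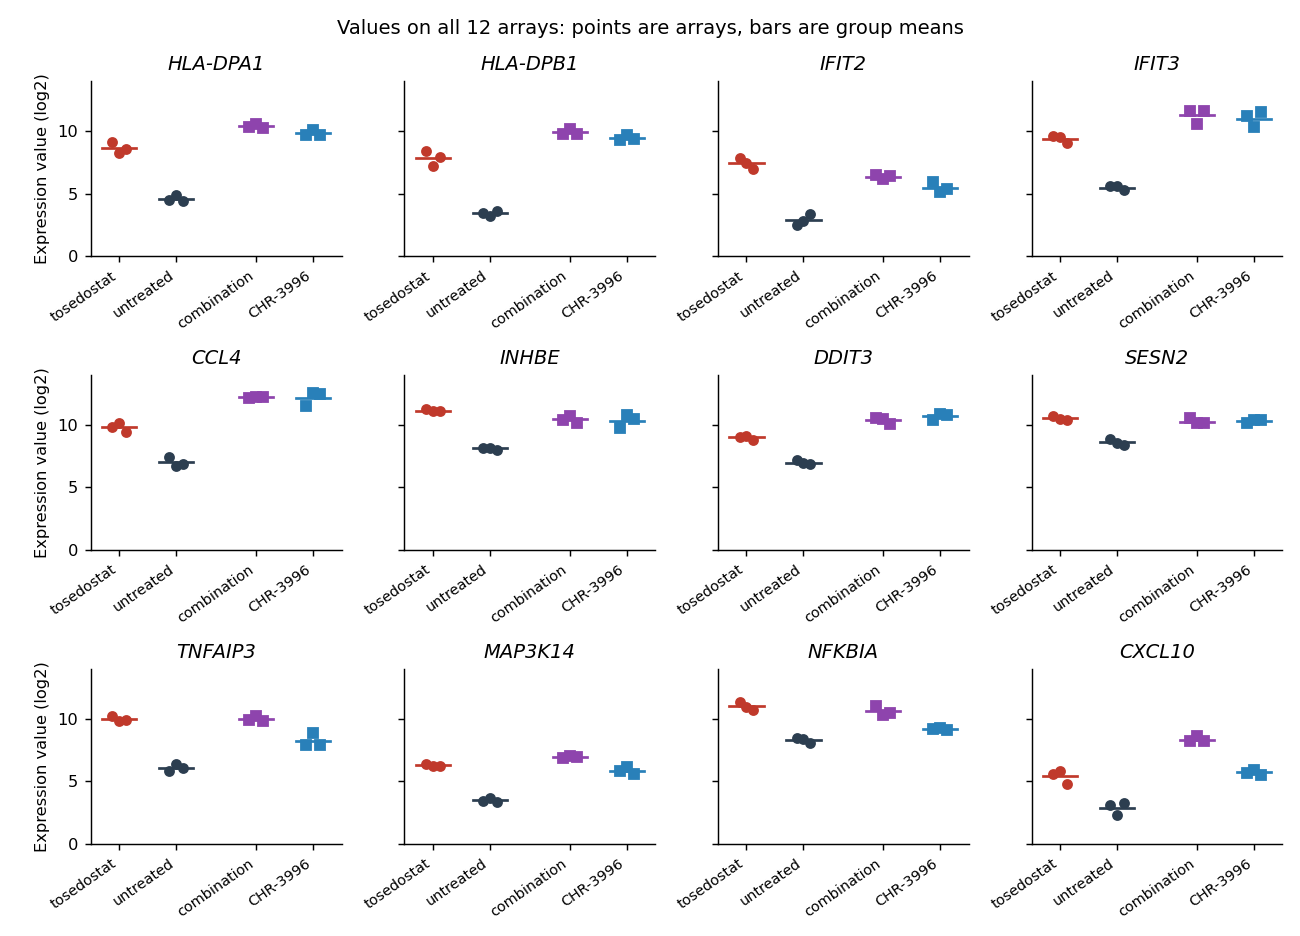
Values on the log2 scale on all 12 arrays for 12 genes, with bars at group means; tosedostat and untreated arrays are circles, combination and CHR-3996 arrays squares. CXCL10 is 2.63 higher in the combination than with CHR-3996, and HLA-DPB1 0.49 higher.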

How the data were processed

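Gene expression in H929 cells was measured on Affymetrix U133 Plus 2.0 arrays, 12 in all, 3 for each of tosedostat (1 µM), the combination, CHR-3996 (250 nM) and untreated cells, at 24 hours. Per the labels and methods, RNA was amplified in 2 rounds before biotin labelling, and the log2 values were deposited by the authors after normalisation in dChip, with the lowest values set to 0. Such a floor compresses changes of dim probe sets, and single-array precision is limited by the number of arrays.

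The 62 control probe sets on the array were dropped. Of the other 54613, the 36395 that lay above the 40th percentile on at least 3 arrays were tested with limma 3.58.1 (R 4.3.3), with 1 term per group and 8 residual degrees of freedom. The adjusted p was computed over all 36395. Genes were named from the platform annotation: among all 54613 probe sets, 41091 had 1 symbol, 1801 had several and 11721 were not listed, and only the first were named. Fold changes are tosedostat minus untreated, and combination minus CHR-3996. The interaction is the second difference minus the first. Python 3.11.15 with matplotlib 3.10.9 made the figures, and the fit was tested on simulated data.

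The genes named are the 15 largest increases and 15 largest decreases of called genes with no overlap between the groups' arrays and with a higher group above the 40th percentile, up to 8 called members of each of 43 gene lists, TNFAIP3, NFKBIA and CYLD by all their probe sets (BIRC3, also in the rule, is not reported here because the annotation used lists no probe set for it), and uncalled members that explain a count. The comparison, lists and rule were chosen with earlier results of these data known. Same-numbered samples deviated together from their group means (r = 0.13, 0.29 and 0.18 for tosedostat with untreated, and 0.28, 0.27 and 0.18 for the combination with CHR-3996), so the numbers were taken to pair the samples, on the evidence of the data alone. This pairing enters only the alternative with the replicate block. Calls come from the fit without it unless the block is named. Alternatives were quantile normalisation, equal array medians, other filters, a replicate block, a variance trend, the compared groups alone, the size criteria of the methods, other probe sets and leaving out each array. A promoter search for the interferon response element was added after the data were seen.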

Additional observations from a re-analysis of the deposited data

Results flagged for a closer look

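The difference made by tosedostat depended on whether CHR-3996 was present for 18 of the named genes, by the interaction test in limma (adjusted p under 0.05). In each of them the interaction was negative, that is, the difference was smaller, or of the other sign, in the presence of CHR-3996. The named genes were chosen by calls of tosedostat against untreated cells. The interaction subtracts that same difference, so its sign is not independent of the choice. Among MHC class II genes the interaction was -3.92 for HLA-DPB1, -3.48 for HLA-DPA1, -2.77 for HLA-DQB1 and -1.92 for HLA-DMA. HLA-DPA1 averaged 8.64 after tosedostat and 4.59 in untreated cells, and 10.37 in the combination and 9.81 with CHR-3996. Among interferon-induced genes it was -3.67 for IFIT2, -3.63 for IFIT3 and -1.76 for IFIH1. IFIT2 averaged 7.41 ± 0.45 after tosedostat and 2.86 ± 0.44 in untreated cells, and 6.35 ± 0.15 in the combination and 5.47 ± 0.41 with CHR-3996 (SD, n = 3 each).

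Amino acid response genes formed a second group, with interactions of -2.36 for DDIT3, -2.17 for CTH, -1.95 for SESN2, -1.67 for ATF3 and -1.0 for SQSTM1. DDIT3 averaged 9.0 after tosedostat and 6.97 in untreated cells, and 10.36 in the combination and 10.70 with CHR-3996. The enzyme CBS (-1.52) and the secreted factor INHBE (-2.93) also differed. Of the NFκB pathway and its targets, MAP3K14 (-1.69) and CCL4 (-2.80) differed, and so did KLHL5 (-2.76) and RNF19B (-2.24).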

How the results depend on the processing

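The 1174 higher and 164 lower calls of tosedostat against untreated cells depended on the setting. They were 616 and 70 without a filter on low values, 592 and 90 with the compared groups alone, 257 and 23 with the size criteria of the methods and an unadjusted p, and 354 lower with quantile normalisation and 259 lower with a filter at the 60th percentile. Without 1 of the 6 arrays they were 549 to 966 and 60 to 89. The array medians differed by -0.0095 to 0.0222, the actin controls by -0.1356 to 0.0349 and the GAPDH controls by -0.0465 to 0.0281.

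With the replicate block, 1936 probe sets were called higher and 373 lower, sharing 1328 calls and losing 10, and all 115 named genes kept their call. With the block on the 6 arrays alone, the counts were 0 and 0, where 2 residual degrees of freedom remain. In the second pair the block gave 30 higher, and in the interaction 42 higher and 189 lower.

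Combination against CHR-3996 gave 6 higher and 0 lower without the filter, 38 higher with the 60th percentile, 76 and 11 with a variance trend, 3 and 0 with the groups alone, 8 lower with quantile normalisation and 2 lower with equal medians. Without 1 array, 1 to 15 were higher and 0 to 3 lower. The interaction gave 19 higher and 147 lower with quantile normalisation, 1 and 21 without the filter, 40 and 184 with the 60th percentile, 49 and 196 with a variance trend, and 0 to 9 and 21 to 79 without 1 array, fewest lower without combination replicate 3. Tosedostat against CHR-3996 gave 9148 higher calls with equal medians, and 5110 to 6194 higher and 8296 to 9242 lower without 1 array. The cause of these changes was not tested.

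Of 136 other probe sets of the named genes, 66 gave the same call, 58 were not called and 12 had the other sign, none of them called: HLA-DPA1 -0.0149, RGS1 -0.50, KLHL5 -0.13, NFKBIA -0.78, CFLAR -0.0497, ATF3 -0.0345, TNFRSF10B -0.29, BCL2 -0.0601, CCNG2 -0.0278, RBL1 0.13, ME1 -0.0548 and IL6ST -0.0327. Quantile normalisation and equal medians each left 107 of 115 named genes called. With each array left out in turn, 65 kept their call, among them the 15 largest increases. The other 50 lost it without at least 1 array, with a highest adjusted p of 0.0501 to 0.183: C3orf20, SPATA3-AS1, TDRP, PSLNR, ATP10A, MAL2, SHANK1, EPIC1, NFKB1, TRAF3, TNFSF10, PLEK, CCND2, CFLAR, MARCKS, TRIB3, STC2, ASNS, ULK1, EIF4EBP1, RRAGC, TAPBP, HLA-B, IFIT5, IRF9, HERPUD1, HSPA1L, TNFRSF10B, BCL2, BCL2L1, MCL1, CCNG2, E2F8, RBL1, GABARAPL1, MAP1LC3B, ATG2A, CTSD, PSAP, LAMP2, NQO1, GCLM, IER5, PIM1, IL6ST, PIAS3, SELPLG, TNFSF9, C1QA and S100A8. A log2 value at the floor has no order, so changes of the dimmest probe sets may be understated.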
